A study of Danio rerio with 6 samples.

Results

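Solute carriers are the membrane proteins that move amino acids, sugars, ions, metals, vitamins and metabolites across the plasma membrane and the membranes of organelles. Their transcripts were compared here between cells positive for a kdrl reporter that did and did not show fluorescence of an NF-kB reporter. Both sorts held transcripts of endothelial and of erythroid marker genes, as given below. The members were taken by name: every gene of the deposited table whose symbol starts with slc and a digit, without the mitochondrial slc25a carriers and without slc4a1a and slc20a1a. This gave 45 of the 2471 genes analysed. The reference annotation holds 374 protein-coding symbols that meet the same naming rule.

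The cells came from zebrafish embryos aged 22 hours after fertilization. These bore NFKB:d2eGFP, a short-lived green fluorescent reporter of NF-kB activity, and kdrl:mCherry, a red reporter driven by the promoter of the VEGF receptor gene kdrl. From dissected trunks, live mCherry-positive cells were sorted by the green reporter into NFKB+ and NFKB- samples. Each sample held about 7000 cells, and each sort has 3 libraries. All cells of both sorts carried both transgenes, no agent was given and NF-kB itself was not perturbed, so a difference goes with reporter fluorescence and is not shown to be an effect of NF-kB. The labels call the 3 samples of a sort biological replicates. They do not state whether each came from a pool of embryos of its own. The SDs given here measure the spread between these samples. The SEs come from a fit that also draws on the spread of all genes analysed, so they can differ from it.

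A solute carrier works as a gate that alternates between the sides of a membrane. Some carriers let a solute run down its gradient, as the glucose carriers of the slc2 family do. Others couple it to sodium, protons or a second solute, as the amino acid exchangers do. Some need a partner: light chains of the slc7 family reach the cell surface as heteromers with the heavy chain that slc3a2 genes encode. In endothelium, carriers supply glucose and amino acids to the vessel wall and to the tissue beyond it, while erythroid cells are known for heavy import of iron and of glycine for heme.

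The deposited table holds only genes that had passed 2-fold and an adjusted p of 0.01 when the authors compared these 6 libraries. A refit with limma therefore called all genes of the table, and the 45 carriers with them. The share called was 100% of 2471 genes, and nothing is read from it. Carriers outside the table were not analysed here. The direction and the size of the differences, the values per library and the balance between carriers are what follows.

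The sorts also differed in blood RNA. Globin transcripts took 7.34% ± 0.588 (SD, n = 3) of the reads of the table in NFKB+ libraries, and 39.1% ± 2.95 in NFKB- libraries. All 8 endothelial markers listed (kdrl, cdh5, tie1, tek, pecam1, fli1a, egfl7 and etv2) were in the table and higher in NFKB+ cells, with log2 differences from 1.08 to 2.14. They were present in both sorts, with summed levels of 362950 to 381593 normalized reads in NFKB+ and 108358 to 145761 in NFKB- libraries. The 8 erythroid markers were lower in NFKB+ cells, by log2 differences of -2.98 to -2.58, with sums of 487086 to 595024 against 3548351 to 4882166. All 6 myeloid markers were lower as well, from -4.67 to -2.87, with sums of 7727 to 9674 against 123983 to 155092. The 4 epidermal and ionocyte markers in the table, of 5 listed, were higher, from 1.20 to 2.02, with sums of 2420 to 4459 against 826 to 1271. The 3 pronephros markers in the table were lower, from -2.46 to -1.28, with sums of 946 to 1513 against 5350 to 7278. In sorted bulk RNA, fewer cells of a type and less RNA per cell cannot be told apart, and the part of these cell types in the carrier differences was not tested.

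Of the 45 carriers, 26 (57.8%) had higher and 19 had lower levels in NFKB+ cells. Of all genes of the table, 54.5% were higher and 45.5% lower, so the carriers were split nearly as the table was. Their median log2 difference was 1.09, against 1.08 for all genes. Both medians lie near the 2-fold limit of the table, which the selection set, so their likeness says nothing on the carriers. A log2 difference of 2 or more was found for 7 higher and 9 lower of the 45 carriers. Of the 2471 genes, 233 (9.43%) were higher and 365 (14.8%) lower by as much, which are smaller shares. The libraries of the sorts did not overlap for 44 of 45 carriers, beside 99.6% of all genes. The substrate classes, which were assigned by a list of gene names, were less evenly divided. The carriers of sugars and those of bicarbonate, protons and chloride were higher in NFKB+ cells, 10 of 10. With libraries rescaled by the median ratio over the table, 5 of these 10 no longer passed limma's adjusted p of 0.05. That scaling takes the middle gene as unchanged, but each gene of the table had passed 2-fold. It moved the differences by about -0.88, which left little of those near the 2-fold limit. A call lost under it therefore marks a difference near that limit or few reads, and does not show that a difference is absent. The 4 members grouped by name with the monocarboxylate carriers were lower, though not all have a known monocarboxylate substrate. Amino acid carriers went both ways. No class was tested against the table, since the table had been chosen on this comparison.

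**Figure D1:**
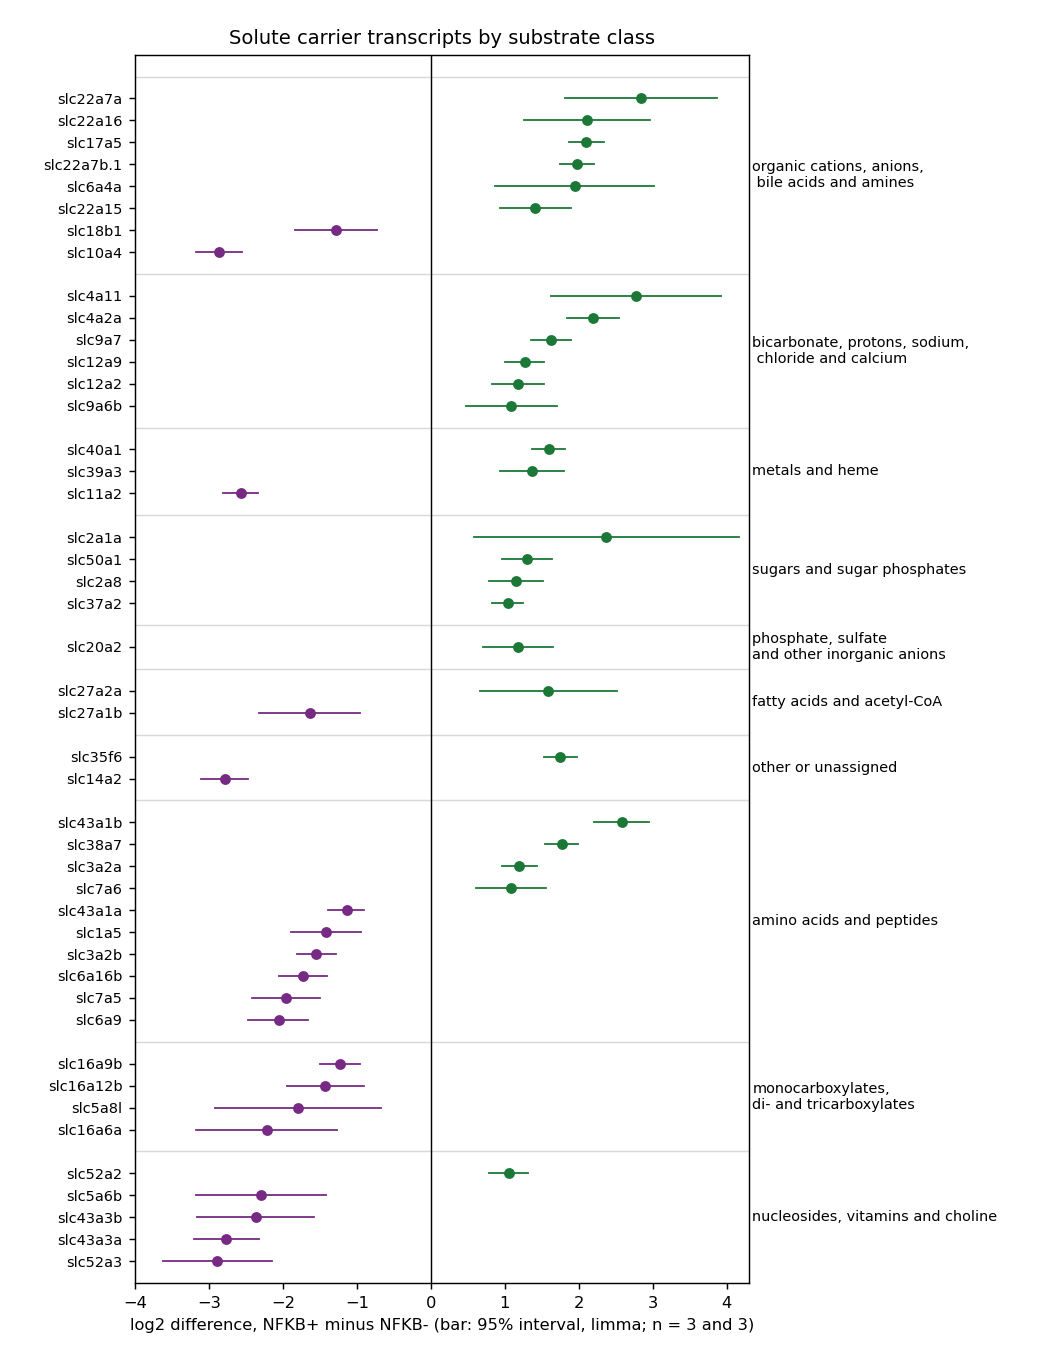
Log2 difference between NFKB+ and NFKB- cells (x axis) for each of the 45 solute carriers (y axis), grouped by substrate class. Points are limma estimates from 3 and 3 libraries, bars are 95% intervals, green is higher and purple lower in NFKB+ cells. The ion and sugar classes lie to the right of 0, the monocarboxylate class to the left, and the amino acid class on both sides.

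Amino acid carriers were the largest class. Of the 92 annotated symbols that the list of names places in it, 10 were members. Of these 10, 4 were higher and 6 lower, or 40% higher beside 54.5% of all genes. The 2 zebrafish genes for the heavy chain of the heteromeric exchangers went opposite ways. Transcripts of slc3a2a (NCBI Gene 796322) stood at 3455, 3551 and 3613 normalized reads in NFKB+ libraries 1 to 3, against 1561, 1660 and 1428 in NFKB- libraries 4 to 6. The 6 libraries thus fell into separate groups, with NFKB+ higher by 1.19 ± 0.11 on the log2 scale (SE, n = 3 per group), a 2.29-fold difference. Its duplicate slc3a2b (Gene 399488) stood at 1754, 1727 and 1470 against 4329, 4651 and 5518. There the NFKB- libraries were the higher ones, with a log2 difference of -1.55 ± 0.12, which is 2.92-fold.

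The light chains were divided in the same manner. The gene slc7a6 (Gene 57957) encodes a light chain that exchanges cationic for neutral amino acids. It had 654, 480 and 465 normalized reads in NFKB+ and 297, 263 and 194 in NFKB- libraries, a log2 difference of 1.09 ± 0.22. Under the median ratio scaling the difference of slc7a6 was 0.21 (limma adjusted p = 0.357). The gene slc7a5 (Gene 797250), whose product imports large neutral amino acids such as leucine, had 148, 234 and 239 against 716, 798 and 872. It was 3.90-fold lower in NFKB+ cells, with its lowest value in NFKB+ library 1.

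Because a ratio of 2 transcripts within a library does not depend on how libraries are scaled, the balance of these subunits was also computed. The log2 ratio of slc3a2a over slc3a2b was 0.98, 1.04 and 1.30 in NFKB+ libraries, against -1.47, -1.49 and -1.95 in NFKB- libraries. The ratio changed by 6.68-fold between the sorts. The log2 ratio of slc3a2a over slc7a6 was 2.75 ± 0.30 (SD, n = 3) in NFKB+ and 2.64 ± 0.24 in NFKB- libraries, a change of 0.11 that was smaller than either spread. That of slc3a2b over slc7a5 was 3.02 ± 0.48 against 2.60 ± 0.06, a change of 0.42 that was smaller than the spread in NFKB+ libraries. In the other combinations, the log2 ratio of slc3a2a to slc7a5 changed by 3.16 and that of slc3a2b to slc7a6 by -2.63. The level of such a ratio depends on transcript lengths, which were not used here, so only its change between libraries is compared. The genes had been chosen for their differences: each had passed 2-fold, so a ratio of 2 genes with opposite directions had to change. In a ratio of 2 genes with the same direction, the differences cancel in part. The contrast between subunits with the same and with opposite directions was thus largely set by the directions already given. Which heavy chain joins which light chain was not tested. The ratios are given without a test.

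A second duplicate pair was split as well. The slc43a1 genes encode carriers of large neutral amino acids that work without a heavy chain. Transcripts of slc43a1b (Gene 100009631) were at 2432, 2817 and 2246 normalized reads in NFKB+ and 548, 342 and 385 in NFKB- libraries. With a log2 difference of 2.58 ± 0.18, or 5.96-fold, this was the amino acid carrier with the largest excess in NFKB+ cells. Transcripts of slc43a1a (Gene 334395) were at 3856, 4529 and 3531 against 8109, 8519 and 9650, which is 2.21-fold lower in NFKB+ cells. The log2 ratio of slc43a1b over slc43a1a was nearly the same in the 3 NFKB+ libraries, at -0.66, -0.68 and -0.65, and lay at -3.88, -4.63 and -4.65 in the NFKB- libraries. This ratio changed by 13.2-fold between the sorts.

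The remaining amino acid carriers were 1 higher and 3 lower, in the plasma membrane and in lysosomes. The gene slc38a7 (Gene 445254) encodes a carrier that exports glutamine from lysosomes in human cells. It stood at 6089, 6268 and 6352 normalized reads against 1942, 1697 and 1872, and was 3.40-fold higher in NFKB+ cells. Transcripts of slc6a9 (Gene 494490), the glycine transporter known in mice to supply glycine for heme in erythroid cells, were at 219, 168 and 183 against 732, 846 and 807. They were 4.18-fold lower in NFKB+ cells, in libraries in which the 8 erythroid markers were also lower. In the reference annotation the span of slc6a9 overlaps that of ccdc24, which had a log2 difference of -1.15. Strand was not stated and shared exons were not checked, so whether these genes shared reads is not known. The relative slc6a16b, with no settled substrate, was 3.32-fold lower. The log2 ratio of slc6a9 over slc6a16b was -1.41, -1.44 and -1.60 in NFKB+ libraries. In NFKB- libraries it was -1.12, -1.08 and -1.24, so the sorts did not overlap although both genes were lower. Transcripts of slc1a5, a neutral amino acid exchanger that takes up glutamine in mammalian cells, were 2.67-fold lower, with 166 to 243 normalized reads in NFKB+ and 446 to 627 in NFKB- libraries.

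**Figure D2:**
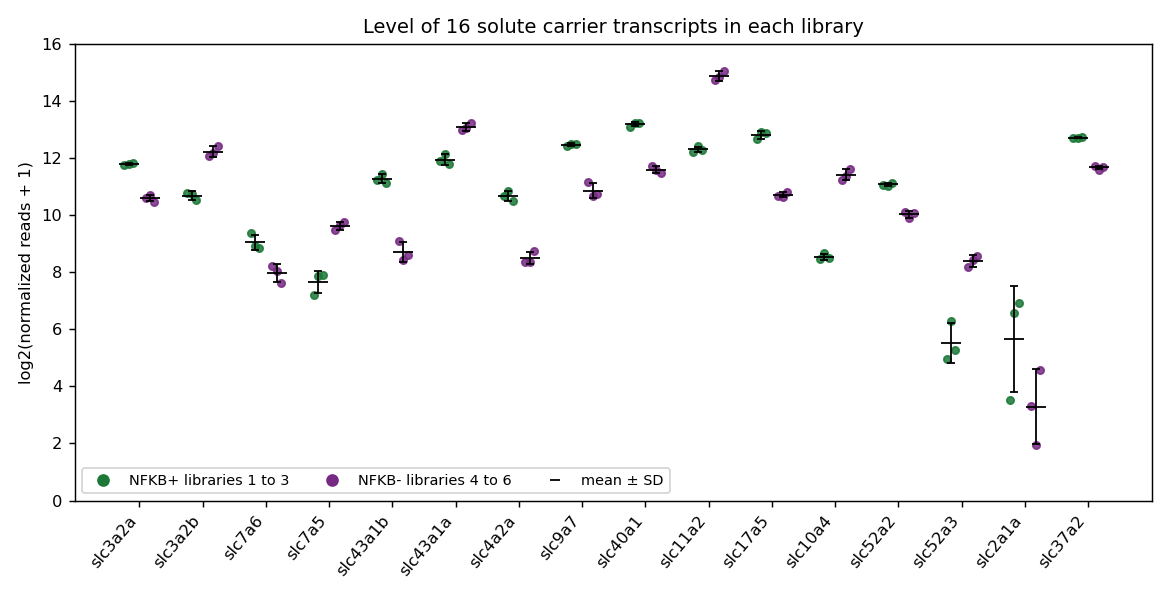
Level in each library on the log2(normalized reads + 1) scale (y axis) for 16 solute carriers (x axis), with NFKB+ libraries in green, NFKB- libraries in purple and black marks for mean ± SD (n = 3). The groups are apart for 15 of the genes and overlap for slc2a1a, where NFKB+ library 1 lies at 3.51. The duplicates slc3a2a and slc3a2b, and slc43a1b and slc43a1a, lie in opposite order.

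Genes of the amino acid response, which supply or sense amino acids within the cell, were also split. Of 32 listed, 12 were in the table, 6 higher and 6 lower. The median log2 difference of -0.07 falls between the sides, where no gene of the table lies. The stress factor gene ddit3 and the sestrin gene sesn3 were 3.89- and 2.33-fold higher in NFKB+ cells, and trib3, which encodes a pseudokinase induced by amino acid shortage, was 2.14-fold higher. The factor gene atf5a was 5.03-fold lower. The gene shmt2, whose mitochondrial enzyme splits serine, and cbsa, whose enzyme joins serine to homocysteine, were 3.94- and 3.61-fold lower. The genes atf4a and asns, on the same list, were not among the genes analysed.

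All 6 carriers of bicarbonate, protons, sodium and chloride in the table were higher in NFKB+ cells, from log2 1.09 to 2.78, beside 54.5% of all genes. Under the median ratio scaling 4 of the 6 passed, and slc12a2 and slc9a6b did not. The class has 53 annotated symbols. Transcripts of slc4a2a (Gene 566075), whose product exchanges chloride for bicarbonate, were at 1640, 1836 and 1436 normalized reads in NFKB+ and 329, 328 and 423 in NFKB- libraries. The difference was 2.19 ± 0.16 on the log2 scale, or 4.55-fold. Its relative slc4a11 (Gene 559346), described in the table as a sodium borate transporter, had 157, 131 and 147 against 23.7, 6.71 and 49.0. The 3 NFKB- libraries differed widely, and the log2 difference of 2.78 ± 0.54 became 2.05 without NFKB- library 5 and 3.40 without NFKB- library 6.

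The sodium/proton exchangers of the class belong to the endosome and Golgi branch of the slc9 family. Transcripts of slc9a7 (Gene 554532) were at 5451, 5778 and 5814 normalized reads against 2264, 1612 and 1725, which is 3.07-fold higher in NFKB+ cells. Those of slc9a6b were at 407, 215 and 303 against 178, 144 and 106. This is 2.13-fold higher, with the sorts closest between NFKB+ library 2 and NFKB- library 4. Within the cation-chloride cotransporter family, slc12a2, which brings sodium, potassium and chloride into the cell, was 2.27-fold higher, with 1885 to 2604 against 846 to 1214. The relative slc12a9 was 2.41-fold higher, with 2227 to 2365 against 873 to 1054. The log2 ratio of slc12a2 over slc12a9 was -0.07 ± 0.27 (SD, n = 3) in NFKB+ and 0.01 ± 0.34 in NFKB- libraries, a change of -0.09.

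The pumps that maintain the gradients used by such carriers went both ways. Of 76 ion-pumping ATPase and lipid flippase genes annotated, 6 were in the table, 3 higher and 3 lower, beside 54.5% and 45.5% of all genes. The sodium pump subunit gene atp1b1a was at 41326, 46847 and 45575 normalized reads in NFKB+ and 14509, 13951 and 16067 in NFKB- libraries, 3.00-fold higher. The subunit genes atp1a3a and atp1b3b of the same pump were 6.03- and 3.64-fold lower. The proton pump gene atp6v0cb was 2.94-fold higher, the calcium pump gene atp2a2a of the endoplasmic reticulum 2.15-fold higher and the plasma membrane calcium pump gene atp2b1a 2.77-fold lower.

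The 4 sugar carriers in the table, of 39 annotated symbols, were higher in NFKB+ cells, beside 54.5% of all genes. Under the median ratio scaling 1 of the 4, slc50a1, still passed. Transcripts of slc37a2 (Gene 406287), whose product exchanges glucose 6-phosphate for phosphate at the endoplasmic reticulum, had the smallest excess, 2.05-fold. They also varied least, at 6623, 6733 and 6792 normalized reads against 3379, 3114 and 3318. Those of slc50a1 (Gene 503533), a relative of the plant SWEET sugar carriers, were at 1065, 1152 and 1239 against 517, 492 and 399, or 2.46-fold higher. The intracellular hexose carrier gene slc2a8 was at 1560, 1653 and 1534 against 640, 599 and 945, or 2.22-fold higher.

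The glucose transporter gene slc2a1a (Gene 555778), an orthologue of GLUT1, which carries glucose into endothelium of the mammalian brain, was measured poorly. It had 10.4, 93.5 and 119 normalized reads in NFKB+ and 9.03, 2.87 and 22.9 in NFKB- libraries. NFKB+ library 1 lay among the NFKB- libraries, and this was the carrier whose groups overlapped. The log2 difference was 2.37 ± 0.84 (limma adjusted p = 0.013), and under the alternatives run the adjusted p ranged from 2.41e-05 to 0.134. It was 3.45 without NFKB+ library 1, 1.75 without NFKB+ library 3, 1.71 without NFKB- library 5 and 3.02 without NFKB- library 6.

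Genes listed under glycolysis and lactate were on the other side. Of 40 glycolysis and lactate genes listed, 5 were in the table and all 5 were lower in NFKB+ cells, beside 45.5% of all genes. Their median log2 difference was -1.54. The hexokinase gene hk2 stood at 886, 732 and 816 normalized reads against 2379, 2493 and 2190, or 2.90-fold lower. The phosphofructokinase gene pfkma and the pyruvate dehydrogenase kinase gene pdk2b were 5.76- and 5.22-fold lower, and the pyruvate kinase gene pkma and gapdh 2.75- and 2.16-fold lower. The globin share of 7.34% against 39.1% moved with them, and its part was not tested.

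Carriers of iron went opposite ways, which by the selection of the table made their ratio change. Among the pairs computed, which were chosen after their values were seen, this change was the largest. The gene slc40a1 (Gene 58153) encodes ferroportin, the iron exporter that is mutated in the anemic zebrafish line weissherbst. It stood at 8764, 9672 and 9623 normalized reads in NFKB+ and 3371, 3090 and 2836 in NFKB- libraries. It was higher in NFKB+ cells by 1.60 ± 0.11 on the log2 scale, or 3.02-fold. The gene slc11a2 (Gene 678623) encodes the proton-coupled iron importer that is mutated in the anemic zebrafish line chardonnay. It stood at 4797, 5455 and 5041 against 27204, 29574 and 34389, which is 5.94-fold lower in NFKB+ cells. The log2 ratio of slc40a1 over slc11a2 was 0.88 ± 0.053 (SD, n = 3) in NFKB+ and -3.29 ± 0.29 in NFKB- libraries, an 18.0-fold change. The zinc importer gene slc39a3 was 2.59-fold higher, with 580 to 656 against 189 to 276.

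Of 28 listed genes of iron, zinc and heme handling outside the carriers, 8 were in the table, 1 higher and 7 lower in NFKB+ cells. Of all genes, 54.5% were higher and 45.5% lower. The transferrin receptor genes tfr2 and tfr1a were 5.53- and 5.40-fold lower and the ferritin gene fth1a 3.68-fold lower. Heme oxygenase, which breaks heme down and frees its iron, was the exception: hmox1a was at 4417, 4708 and 5273 normalized reads against 1489, 1202 and 1984, or 3.14-fold higher. The log2 difference of slc11a2, -2.57, lay just outside the range of the 8 erythroid markers, whose smallest difference was -2.58. The differences of slc14a2, slc10a4, slc43a3a and slc52a3 lay within that range, 8.89% of the carriers beside 3.64% of all genes, and slc52a3 also lay within the myeloid range. The share of carriers within the range of the myeloid markers was 2.22%, beside 4.53% of all genes. For the endothelial markers it was 42.2% beside 42.8%, and for the epidermal and ionocyte markers 24.4% beside 33.4%. These shares are descriptions of a few genes and were not tested.

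**Figure D3:**
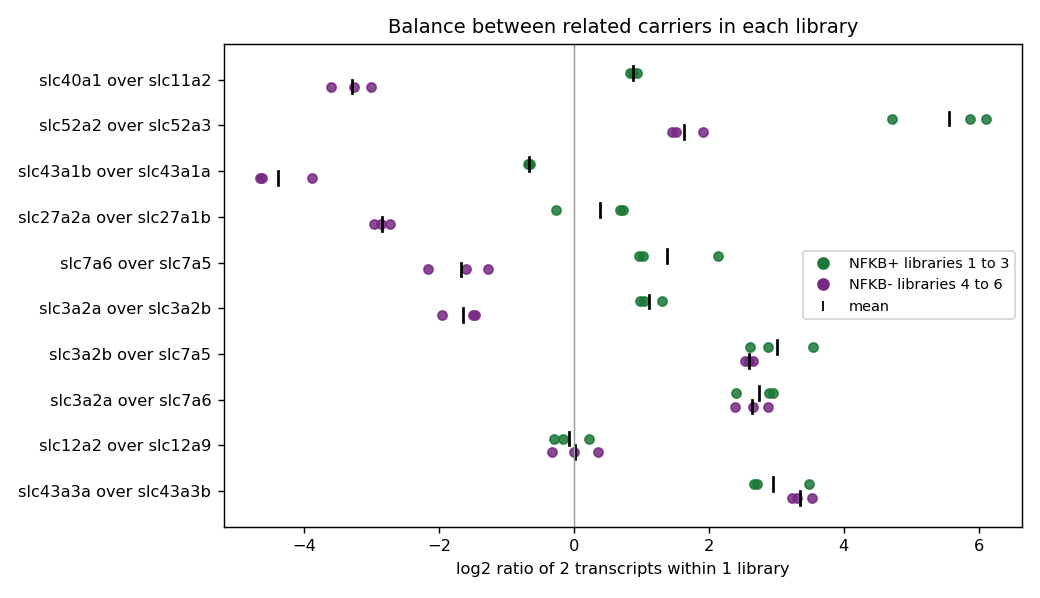
Log2 ratio of the normalized reads (plus 1) of 2 transcripts within each library (x axis) for 10 pairs of carriers (y axis), with NFKB+ libraries in green, NFKB- libraries in purple and black bars for the mean of 3 libraries. For the 6 upper pairs the sorts lie apart, from a change of 2.74 for the slc3a2 duplicates to 4.17 for slc40a1 over slc11a2. For the 4 lower pairs the libraries of the sorts overlap. The pairs not drawn include slc6a9 over slc6a16b, both lower in NFKB+ cells, whose libraries did not overlap.

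The 4 members among the monocarboxylate and related carriers, of 25 annotated symbols, were lower in NFKB+ cells, beside 45.5% of all genes. The median log2 difference of these 4 was -1.61. The best measured was slc16a9b, a relative of a human carnitine carrier, at 1825, 1793 and 1417 normalized reads against 3572, 4296 and 3895. It was 2.34-fold lower. The gene slc16a12b, whose human relative carries creatine, was at 97.6, 133 and 154 against 353, 343 and 326, or 2.69-fold lower. Fewer reads stood behind slc16a6a, which exports ketone bodies from the zebrafish liver, with 10.9 to 20.4 against 60.9 to 111. Those of slc5a8l, a relative of a sodium-coupled monocarboxylate carrier, were 12.0 to 26.9 against 40.2 to 144. Their means over the 6 libraries, 49.9 and 49.1 normalized reads, were under the 50 used as a limit for well-measured genes. The lactate carriers of the slc16a1 and slc16a3 type were not among the genes analysed.

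Carriers of vitamins and nucleobases were mostly lower, 4 of 5 beside 45.5% of all genes, with a median log2 difference of -2.37. The exception divided another family. The riboflavin carrier gene slc52a2 (Gene 323832) was at 2150, 2086 and 2233 normalized reads in NFKB+ and 1094, 948 and 1088 in NFKB- libraries, 2.07-fold higher. Under the median ratio scaling its log2 difference was 0.17 (limma adjusted p = 0.192). Its relative slc52a3 (Gene 678609) was at 30.1, 77.9 and 37.2 against 288, 343 and 382, a log2 difference of -2.89 ± 0.35. This was 7.40-fold lower in NFKB+ cells, and the log2 ratio of slc52a2 over slc52a3 changed by 3.94. The reference table gives slc52a3 the newer name slc52a3-1.

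Both slc43a3 duplicates, relatives of a human purine nucleobase carrier, were lower. Transcripts of slc43a3a (Gene 572234) were at 223, 225 and 144 normalized reads against 1141, 1366 and 1499, or 6.82-fold lower. Those of slc43a3b were at 33.2, 19.2 and 21.8 against 121, 137 and 129, or 5.17-fold lower. The log2 ratio between the duplicates was 2.96 ± 0.46 (SD, n = 3) in NFKB+ and 3.36 ± 0.16 in NFKB- libraries, and its libraries overlapped. Differences with the same direction cancel in part in a ratio. The ratios of the slc43a1 and slc3a2 duplicates, with opposite directions, had to change, so that contrast restates the directions. The span of slc43a3a overlaps that of cabp2a in the reference annotation, and cabp2a had a log2 difference of -2.42. The multivitamin carrier gene slc5a6b, for biotin and pantothenate, was 4.93-fold lower, with 24.0 to 75.8 against 159 to 283.

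Carriers of organic anions, cations and amines were mostly higher, 6 of 8 members or 75%, beside 54.5% of all genes. This class has 41 annotated symbols. The gene slc17a5 (Gene 767760) encodes sialin, which exports sialic acid from lysosomes. It was at 6483, 7703 and 7572 normalized reads against 1653, 1607 and 1797, a log2 difference of 2.10 ± 0.11, or 4.29-fold. The organic anion transporter gene slc22a7b.1 (Gene 393320) was at 5616, 5815 and 5357 against 1514, 1457 and 1305, or 3.93-fold higher. In the reference annotation its span overlaps that of a further copy, slc22a7b.4, and reads may have been shared between them. The duplicate slc22a7a was 7.17-fold higher, with a log2 difference of 2.84 ± 0.48, from 108 to 168 normalized reads against 7.63 to 31.6.

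The remaining higher members of the class were slc22a16, slc22a15 and slc6a4a. The gene slc22a16, a relative of a human carnitine transporter, was 4.32-fold higher, with 196 to 241 normalized reads against 22.9 to 72.2. The gene slc22a15 was 2.65-fold higher, with 508 to 560 against 161 to 271. The serotonin transporter gene slc6a4a was 3.85-fold higher, with the lowest mean of the 45 carriers, 31.8 normalized reads. On the other side, slc10a4 (Gene 556491), a relative of the bile acid transporters, was at 354, 406 and 359 against 2427, 2634 and 3159. It was 7.30-fold lower in NFKB+ cells and varied little within each sort. The gene slc18b1, whose product loads polyamines into vesicles in mammals, was 2.44-fold lower.

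The fatty acid transport family was divided between its members. The gene slc27a2a, related to an acyl-CoA synthetase of very long chains, was at 101, 48.0 and 94.3 normalized reads against 35.0, 20.1 and 21.8, or 3.01-fold higher. Under the median ratio scaling its log2 difference was 0.73 (limma adjusted p = 0.122). The gene slc27a1b was at 62.3, 57.5 and 56.5 against 280, 152 and 149, or 3.12-fold lower, and the log2 ratio of slc27a2a over slc27a1b changed by 3.23. The phosphate importer gene slc20a2 was 2.26-fold higher, with 779 to 851 against 250 to 498. The gene slc35f6, of the nucleotide sugar transporter family but with a substrate not assigned here, was 3.36-fold higher, at 6983, 7143 and 7762 against 2314, 2100 and 2093. The urea transporter gene slc14a2 (Gene 326634) was 6.91-fold lower, at 364, 429 and 390 against 2376, 3207 and 2658. None of the 15 annotated nucleotide sugar carriers of the Golgi, named slc35a to slc35d, was in the table.

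By location, 7 members belong to families of lysosomes, endosomes, the Golgi or the endoplasmic reticulum by a list of names. Of these, slc38a7, slc17a5, slc9a7, slc9a6b and slc37a2 were higher, and slc11a2 and slc18b1 lower. This is 71.4% higher, beside 54.5% of all genes. The list does not place slc2a8, described above as intracellular, or slc35f6 in an organelle, so the 7 may not be a full count.

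Other membrane transport genes did not move as a block either. Of 75 annotated carriers and channels named outside the slc scheme, 18 were in the table, 10 higher and 8 lower. This is 55.6% higher, beside 54.5% of all genes. The median log2 difference of 1.08 lies near the 2-fold limit of the table, which the selection set. The water channel gene aqp8a.1 was at 9943, 10198 and 9473 normalized reads in NFKB+ and 1869, 1558 and 1458 in NFKB- libraries, 6.09-fold higher. The gene mfsd12a was 3.12-fold higher and aqp7 2.87-fold higher. The sphingosine phosphate transporter relative spns3 was 10.7-fold lower, and the Rhesus gene rhd and the pyrophosphate exporter gene ankhb were 6.25- and 5.89-fold lower. Among ATP-binding cassette genes 8 of 52 were in the table, 2 higher and 6 lower, beside 54.5% and 45.5% of all genes. The lysosomal peptide transporter gene abcb9 was 14.9-fold lower, abcb6a 4.69-fold lower and abcd3b 2.47-fold lower, while abcb4 and abca1b were 2.67- and 2.13-fold higher. Of the lower ones, abce1 and abcf1 encode soluble translation proteins and no transporter. None of the 14 annotated organic anion carriers named slco was in the table.

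**Figure D4:**
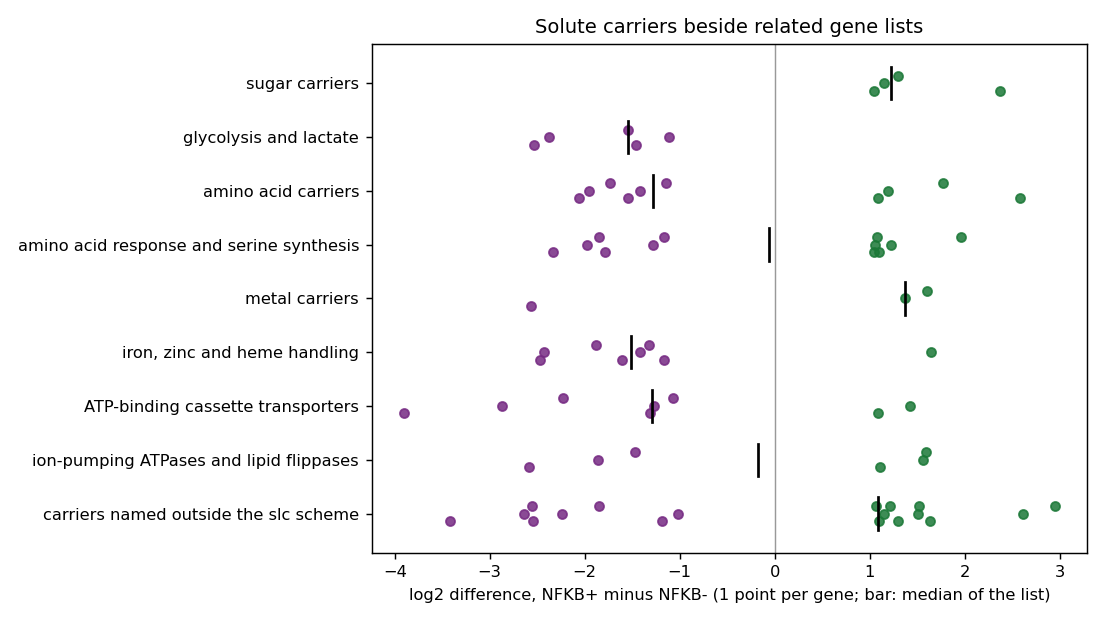
Log2 difference between NFKB+ and NFKB- cells (x axis) for each gene in the table of 9 lists (y axis), with 1 point per gene, green for higher, purple for lower and a black bar for the median of the list. The 4 sugar carriers lie above 0 and the 5 genes listed under glycolysis and lactate below it, and the amino acid carriers and amino acid response genes lie on both sides.

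Spread between libraries was small for most carriers. The median SD on the log2 scale was 0.17 in NFKB+ and 0.21 in NFKB- libraries, beside 0.14 and 0.20 for all genes. The limit on adjusted p by which the table was chosen favours genes with a small spread, so these SDs are partly set by it. An SD over 0.5 was found for 6 carriers in NFKB+ and 7 in NFKB- libraries, and slc2a1a and slc5a8l were among both. The median carrier had a mean of 766 normalized reads, against 1002 for all genes. The carriers together took 0.862% ± 0.00737 (SD, n = 3) of the table's reads in NFKB+ and 0.61% ± 0.0211 in NFKB- libraries. Of the reads left without globins the order was the other way, with 0.929% to 0.932% in NFKB+ and 0.987% to 1.01% in NFKB- libraries.

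The direction of the carriers depended on the authors' scaling only for the call and not for the sign. When libraries were rescaled by the median ratio over the table, the median log2 difference of all genes moved by -0.88. Then 16 carriers instead of 26 passed as higher, and 19 passed as lower. The calls that ended were those of slc7a6, slc52a2, slc2a8, slc37a2, slc12a2, slc27a2a, slc2a1a, slc9a6b, slc20a2 and slc6a4a. The median ratio takes the middle gene as unchanged, which does not hold where each gene had passed 2-fold. The higher carriers with the smallest log2 differences, 1.04 to 1.18, lost their calls, and slc3a2a at 1.19 kept its own. Also lost were the calls of the higher carriers with the fewest reads, slc27a2a, slc2a1a and slc6a4a. Whether a lost difference is real was not settled by this scaling. The table had been selected on the sign and size of these differences under the authors' scaling, so that agreement of sign is no evidence of stability.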

How the data were processed

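Per the labels' protocols, a low-input kit turned total RNA of the sorted cells into libraries, without a statement on strand. Listed in the submitters' processing notes are cutadapt, STAR, HTSeq, DESeq2 and the build danRer10. The annotation was not given in the sources used. The authors deposited 1 table of 2475 rows with log2 values per library, their signed fold score, log2 fold change and p-values, per the file headers. Subtracting 1 from 2 to the power of a value gave whole multiples of 1 step, within 0.1 read, for 100% of values under 1000 reads. The deposited log2 values therefore hold reads per size factor plus 1, with factors from 0.834 to 1.56. The genes form a list selected by the authors at 2-fold and adjusted p 0.01, whose reads, 8393815 to 15165090 per library, are not library depths. For genes with few reads, counting error adds to the spread. Rows for efna2a and mafba, 4 in all, held values that could not be assigned and were left out.

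The columns carry the sort and a running number, so libraries are named by those numbers, 1 to 3 and 4 to 6. The comparison of the sorts used limma 3.58.1 under R 4.3.3 (mean trend, pseudocount 1, no covariate, Benjamini-Hochberg over 2471 genes, threshold 0.05), tested on simulated data. Differences are NFKB+ minus NFKB-, given with the moderated SE, and a fold is 2 raised to the size of a difference. Up to 4 members per class and direction, of those with a mean of 50 normalized reads and groups apart, were to be described in full. The others are given by range or count, and slc43a1a, slc1a5, slc12a2, slc9a6b, slc22a15 and members under that mean were given values outside this rule. Members, classes, lists and alternatives were chosen with earlier results of these data known, and the pairs for ratios and the neighbouring genes after their values were seen. All 45 NCBI Gene IDs matched the RefSeq table of assembly GRCz12tu, which was used for names, gene order and overlap only.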

Additional observations from a re-analysis of the deposited data

How the results depend on the processing

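Signs were unchanged in all 671 member values recomputed, which the selection of the table largely fixed. Of these, 657 stayed on their side of the threshold of limma adjusted p 0.05 and 14 no longer passed it. The genes had been selected by size and adjusted p in these same libraries, and p was adjusted over the selected genes only. The kept calls were thus largely set by the selection too and are no evidence of stability. Rescaling by the median ratio accounted for 10 of the 14, and the other 4 were all of slc2a1a, without a mean trend and without NFKB+ library 3, NFKB- library 4 or NFKB- library 5. The median log2 shift was 0.49 for the same total, -0.11 for the same total without globins and -0.88 for the median ratio. The last left 16 carriers called higher, and 920 higher and 1124 lower genes over the table. At a log2 difference of 2 or more, 7 carriers were higher and 9 lower, and 233 and 365 of all genes. Without 1 library at a time, 25 to 26 carriers were called higher and 19 to 19 lower, and 1343 to 1347 and 1122 to 1124 of all genes. Pseudocounts of 0.5 and 5, library weights, and limma-voom on recovered reads left 26 and 19. No paired analysis was possible because the replicate numbers of the labels are not in the column names. The largest SEs were those of carriers with few reads: 0.84 for slc2a1a, 0.54 for slc4a11, 0.53 for slc5a8l and 0.50 for slc6a4a. Next came slc22a7a at 0.48 and slc16a6a at 0.45.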

Other observations

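Position was not used to choose the carriers. In the order of genes of the reference annotation, the 45 carriers have 90 immediate protein-coding neighbours. Of these, 14 were in the table, and 9 of the 14 had the same direction as the carrier. With 54.5% of all genes higher and 45.5% lower, many pairs of genes share a direction wherever they lie. A link to position was not tested. The glycine transporter gene slc6a9 lies between klf17, a Krüppel-like factor gene, and ccdc24, and these were 6.04- and 2.22-fold lower in NFKB+ cells, like slc6a9. The carrier gene slc10a4 lies beside zar1, with log2 differences of -2.87 and -2.66. Opposite directions were found for slc40a1 and wdr75, at 1.60 and -1.37, and for slc22a16 and apobb.1, at 2.11 and -2.24. No member has another member as its immediate neighbour. For 14 members the span overlaps another protein-coding gene in that annotation, and for 2 of these, slc6a9 and slc43a3a, the overlapping gene is in the table.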
